A study of Homo sapiens with 14 samples.

Results

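The starvation response of cells in which no gene was silenced was read from 4 of the 14 arrays of the series, namely those of MiaPaCa2 cells that carried the scrambled control siRNA (siCtrl) and were either starved for 9 h or fed. MiaPaCa2 is an established human pancreatic cancer cell line. A scrambled siRNA has the form of a silencing RNA and matches no known gene. Starved cells were held in EBSS, Earle's salt solution, which holds no amino acids and no growth factors (per the labels it lacks glucose as well, which its usual formula has). The 14 arrays form an NF-kB set of 6 (siCtrl, siRelA or siRelB, in EBSS or mock at 9 h) and a Nupr1 set of 8 (siCtrl or siNupr1, at 0, 3, 6 and 9 h). Each set gave 1 starved and 1 fed siCtrl array. All 4 cultures had been transfected with the INTERFERin reagent.

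The fed array was not the same in both sets. In the NF-kB set it was the mock array, cultured for 9 h like the starved one, in a medium whose make-up the labels do not give. In the Nupr1 set it was the 0 h array, whose title names DMEM, the growth medium of these cells, while its source field names EBSS; it was used as fed, and its medium is in doubt. A difference between the sets and a difference between the fed controls cannot be told apart. Nothing in the labels says that the arrays are separate cultures, so p-values measure only the spread between arrays, which may be technical. For a difference between the sets, that spread can also hold differences between siRNAs and between times in EBSS. With 2 arrays a side, the number of arrays limits the precision.

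Cells without amino acids accumulate uncharged transfer RNAs. These activate the kinase GCN2, which phosphorylates the initiation factor eIF2, slows protein synthesis as a whole and favours translation of the transcription factor ATF4. ATF4 switches on amino acid transporters, amino acid synthesis enzymes, transfer RNA synthetases and the stress regulators DDIT3 and TRIB3. Loss of amino acids and growth factors also lowers the activity of mTORC1, the growth-promoting kinase complex, and of AKT, which otherwise keeps FOXO transcription factors out of the nucleus. Such cells induce autophagy, the digestion of their own content in lysosomes, and leave the cell cycle before S phase.

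Values are RMA log2 intensities, on which a difference of 1 is a 2-fold change. A level can be set against the same gene on another array and not against another gene. The medians of the 4 arrays over all genes lay between 5.67 and 5.84. Of 18377 genes, the 40% with the lowest mean were left out, and 11026 were tested. The keratins KRT8 and KRT18 and the filament gene VIM read between 12.46 and 13.09 on all 4 arrays, KRT19 between 9.54 and 10.62. The epithelial surface genes CDH1 and EPCAM lay between 3.27 and 4.83, under the filter level of 5.805. Of the 6 markers of endothelium, 0 passed the filter. The leukocyte gene PTPRC lay between 2.44 and 2.69. CD68 and CD14 were the 2 leukocyte markers above the filter, at 7.69 to 8.69 and 5.20 to 6.11. Of 8 fibroblast markers 4 were tested and 1 was called. COL1A2, a collagen chain, was high on the fed arrays (10.60 and 10.67) and lower on the starved ones (9.70 and 9.77), and fell by 0.91 ± 0.16 (SE, adjusted p = 0.00649). The other collagen genes did not pass, COL3A1 at -0.36 and -0.50 and COL1A1 at 0.06 and -0.20, and the actin gene ACTA2 was at 0.67 and 0.28 (adjusted p = 0.197).

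Starvation raised genes of the amino acid and stress response in both sets and lowered genes of DNA replication, the cell cycle and protein folding. The largest rise was that of DDIT3 (6.17-fold in the mean of the sets) and the largest fall that of ID3 (4.42-fold). In a limma fit with the set as a block, 276 genes rose, which is 2.5% of those tested, and 597 fell, which is 5.41%, at a Benjamini-Hochberg adjusted p under 0.05. All of these 873 genes had the same sign in both sets, against 63.6% of all tested genes. The test itself favours such agreement, since its spread includes the disagreement of the sets, so this is no separate result. The mean change was at least 2-fold in 79 of the rises and 227 of the falls. With no test, 35 genes (0.317% of the tested ones) were at least 2-fold higher in both sets, and 61 (0.553%) at least 2-fold lower in both. The block by set carries the calls: without it the levels of the sets enter the spread and 0 genes were called by limma, with 824 at an unadjusted p under 0.05. Each of the 4 arrays leaves 1 pair when left out, and a fit of the remaining arrays of the series then called between 2290 and 2957 genes in that pair. On simulated data the shared fit made more false calls than its threshold allows, so these counts are likely to hold more false calls than the adjusted p states.

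**Figure D1:**
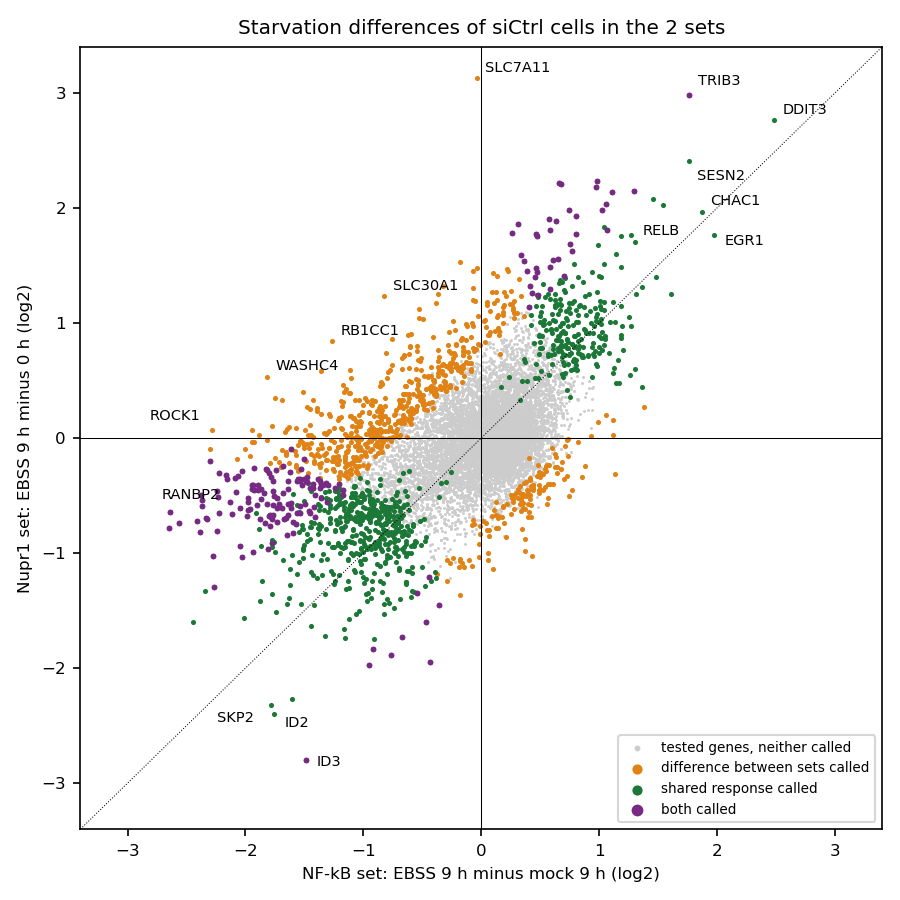
Each point is a tested gene, with its log2 difference between EBSS and mock in the NF-kB set on the horizontal axis and between 9 h in EBSS and 0 h in the Nupr1 set on the vertical axis; the dotted line marks equal differences. Genes called in the shared response (276 rises and 597 falls) lie in the upper right and lower left, and genes whose difference between the sets was called (862) lie away from the dotted line, with SLC7A11 at the top.

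The ATF4 and amino acid response held the largest rises. Of its 32 tested genes 19 rose and 0 fell, against 2.5% and 5.41% of all tested genes. The median log2 difference was 0.77, against 0.013 over all tested genes. DDIT3 (transcript cluster 7964460), a transcription factor of prolonged stress, read 8.96 in EBSS against 6.47 in mock, and 9.47 against 6.70 in the Nupr1 set. Both starved arrays stood far above both fed ones, by a shared log2 difference of 2.62 ± 0.21 (SE, n = 2 pairs, adjusted p = 0.000103). TRIB3, a pseudokinase that dampens ATF4 activity, went from 6.75 to 8.51 in the NF-kB set and from 7.29 to 10.28 in the Nupr1 set. It rose by 2.37 ± 0.26 (adjusted p = 0.000502) and further in the Nupr1 set, by a tested difference of the responses of -1.22 ± 0.23 (adjusted p = 0.00433). CHAC1, an enzyme that degrades glutathione, rose alike in both, from 6.90 to 8.77 and from 7.19 to 9.16, with 1.92 ± 0.21 in the mean (adjusted p = 0.000502). PPP1R15A, which directs a phosphatase to eIF2, rose by 1.77 ± 0.22 (adjusted p = 0.00148). CTH, which makes cysteine from cystathionine, rose by 1.63 ± 0.25 (adjusted p = 0.00378), with 1.11 in the NF-kB set and 2.14 in the Nupr1 set. The transcription factor gene CEBPB rose by 1.44 ± 0.23 (adjusted p = 0.00411). ATF4 itself, which is regulated at translation, was higher by 0.50 and 0.48 in the sets and did not pass (adjusted p = 0.174).

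Amino acid transporters and enzymes of the same list followed. SLC43A1, a transporter of large neutral amino acids that is not on the list, rose from 6.89 to 8.16 and from 7.27 to 9.03 (1.52 ± 0.22, adjusted p = 0.00258). The glycine transporter SLC6A9 rose by 1.24 ± 0.28, the glutamine transporter SLC1A5 by 0.94 ± 0.20 and the arginine and lysine transporter SLC7A1 by 0.92 ± 0.22. All 3 were higher by more in the Nupr1 set, where SLC6A9 differed by 1.91 against 0.57 in the NF-kB set. The partners SLC3A2 and SLC7A5, which form a leucine transporter, rose by 0.75 and 0.69. ASNS, asparagine synthetase, read 10.12 against 9.44 and 11.46 against 10.31, a rise of 0.92 ± 0.17 (adjusted p = 0.0077). The transaminase gene GOT1 read 10.31 against 9.64 and 11.10 against 8.89, and rose by 1.44 ± 0.27. Of 19 tested aminoacyl-tRNA synthetases, the enzymes that load transfer RNAs, 2 rose and 0 fell, against rises in 2.5% of all tested genes. These were CARS1 (1.20 ± 0.22, adjusted p = 0.00767) and SARS1 (0.88 ± 0.15, adjusted p = 0.00645). The list's median was -0.15 in the NF-kB set and 0.29 in the Nupr1 set.

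ATF4 binds, with a C/EBP partner, a composite element with the letters TGATGNAA. Promoters from 250 bases before to 50 bases after the RefSeq start (build GRCh38.p14) were searched for it on both strands. It was present in 14 of the 209 rising genes that had a promoter in the table (6.7%), in 12 of 524 falling genes (2.29%) and in 217 of all 8849 tested genes with a promoter (2.45%). The holders among the rises were ASNS, CHAC1, GOT1, SLC1A4, SLC1A5, SLC3A2, SLC7A1, CARS1, HERPUD1, ATF3, IFRD1, PLK3, WDR45 and ARHGEF28. Windows around the match that end before the start are printed here for 7 of them, since these carry the match among the genes the results turn on. Each reads 5′ to 3′ along the gene's strand, with the match in capitals on whichever strand it was found.
ASNS: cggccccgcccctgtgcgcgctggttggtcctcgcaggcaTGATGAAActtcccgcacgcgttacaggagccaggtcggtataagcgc
CHAC1: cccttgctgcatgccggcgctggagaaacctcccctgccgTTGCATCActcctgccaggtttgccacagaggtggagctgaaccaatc
GOT1: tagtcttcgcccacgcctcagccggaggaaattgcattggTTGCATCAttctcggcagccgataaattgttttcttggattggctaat
SLC1A5: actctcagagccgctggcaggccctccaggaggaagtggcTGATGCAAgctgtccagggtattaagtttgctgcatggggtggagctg
HERPUD1: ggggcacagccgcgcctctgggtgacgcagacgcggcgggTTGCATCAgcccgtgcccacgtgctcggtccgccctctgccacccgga
ATF3: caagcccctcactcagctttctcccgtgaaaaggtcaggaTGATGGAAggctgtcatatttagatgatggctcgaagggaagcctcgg
PLK3: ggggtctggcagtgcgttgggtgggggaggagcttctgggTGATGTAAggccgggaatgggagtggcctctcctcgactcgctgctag
The ASNS window is chr7:97872429-97872516 on the minus strand, with its match beginning 68 bases before the start, and that of CHAC1 is chr15:40953222-40953309 on the plus strand, 209 bases before. GOT1 is shown at chr10:99430775-99430862 (minus, 198 bases before) and SLC1A5 at chr19:46784864-46784951 (minus, 97 bases before). HERPUD1 is shown at chr16:56931926-56932013 (plus, 176 bases before), ATF3 at chr1:212565176-212565263 (plus, 191 bases before) and PLK3 at chr1:44800204-44800291 (plus, 133 bases before). In CHAC1, GOT1 and HERPUD1 the match is on the opposite strand and reads as the same 8 letters, TTGCATCA. A match is a run of letters and no measurement of binding, and a gene without one lacks only these letters in this window.

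Some genes that restrain growth and some genes of autophagy rose next to them, while most members of both lists did not pass. Of 14 tested sestrins and mTORC1 restraints 3 rose and 0 fell: SESN2, DDIT4 and TSC22D3. Over all tested genes 2.5% rose and 5.41% fell, and the list's median was 0.22. SESN2, a leucine sensor that holds back mTORC1, read 8.36 against 6.60 and 9.80 against 7.39, a rise of 2.09 ± 0.22 (adjusted p = 0.000502). DDIT4, another brake on mTORC1, read 9.84 against 8.29 and 10.53 against 8.503, a rise of 1.79 ± 0.20. Starved and fed arrays of both genes did not overlap. Of 32 autophagy and lysosome genes 8 rose and 1 fell, with a median of 0.25. The receptor gene SQSTM1 rose almost equally, from 10.25 to 11.56 and from 10.32 to 11.58 (1.28 ± 0.13, adjusted p = 0.000502). MAP1LC3B, whose protein coats the autophagosome membrane, rose by 1.26 ± 0.26 (adjusted p = 0.0134), with 0.63 in the NF-kB set and 1.89 in the Nupr1 set. Its relative GABARAPL1 was higher by 0.96 and 0.98, and the membrane protein gene WIPI1 by 0.47 and 1.44; both rose (adjusted p = 0.013 and 0.0301). ATG4A, a protease that processes LC3 relatives, was the 1 gene of the list that fell (-0.95 ± 0.18).

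Of 15 tested FOXO targets 8 rose and 0 fell, against 2.5% and 5.41% of all tested genes, with a median of 0.67. YPEL2 read 6.75 against 5.68 and 7.38 against 5.35, a rise of 1.55 ± 0.23 (adjusted p = 0.00335). The antiproliferative gene BTG1 read 8.83 against 7.81 and 9.14 against 7.16, differences of 1.02 and 1.98 that passed (adjusted p = 0.00456). CCNG2, an atypical cyclin of resting cells, differed by 0.98 and 1.08 in the sets, and TXNIP, which limits glucose uptake, by 1.04 and 0.81. Among the 15 largest rises outside the lists were KLHL24, an adaptor of a ubiquitin ligase, at 1.61 ± 0.27 and the transcription factor gene KLF13 at 1.58 ± 0.26. Both were higher by 0.98 in the NF-kB set and by over 2 in the Nupr1 set (2.24 and 2.18).

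Some immediate early genes, which growth factors and stress induce within minutes, were higher after 9 h of starvation than on the fed arrays. Of 28 tested, 13 rose and 0 fell, against 2.5% and 5.41% of all tested genes, with a median of 0.65. The rest of the list did not pass. EGR1 read 9.86 against 7.88 and 10.42 against 8.65, a rise of 1.87 ± 0.19 (adjusted p = 0.000502), the larger difference being that of the NF-kB set (1.98 against 1.76). CCN1, a secreted matrix protein, rose by 1.33 ± 0.20, KLF4 by 1.33 ± 0.23, ATF3 by 1.12 ± 0.19 and JUNB by 1.07 ± 0.20. FOS differed by 0.99 and 1.01.

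The study was built around NUPR1, a small chromatin protein induced by stress, and around the NF-kB subunits RELA and RELB. RELB read 8.41 in EBSS against 7.11 in mock and 8.94 at 9 h against 7.23 at 0 h. It was among the 15 largest rises, at 1.504 ± 0.21 (adjusted p = 0.00253), a mean of 2.84-fold. IER3, an inducible survival gene, read 8.57 against 7.56 and 8.30 against 7.11, and rose by 1.10 ± 0.21 (adjusted p = 0.00896). NUPR1 read 6.84 against 6.30 and 7.30 against 6.27. Its rise of 0.78 ± 0.21 (adjusted p = 0.0349), 1.45-fold in the NF-kB set and 2.03-fold in the Nupr1 set, was lost without the filter on dim genes (adjusted p = 0.0685) and with the trend on gene span removed (adjusted p = 0.0537). RELA was higher by 0.52 and 0.65 and did not pass (0.59 ± 0.19, adjusted p = 0.0743). The differences of these 4 responses between the sets did not pass either, with -0.41 ± 0.23 for RELB, -0.18 ± 0.23 for IER3, -0.49 ± 0.24 for NUPR1 and -0.13 ± 0.21 for RELA.

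Canonical NF-kB targets had 7 rises and 0 falls among 17 tested genes, against 2.5% and 5.41% of all tested genes. Their median was 0.54 in the NF-kB set and 0.31 in the Nupr1 set, where all tested genes had 0.055 and -0.029. LIF, a cytokine, read 8.72 against 7.42 and 9.53 against 7.38, a rise of 1.72 ± 0.24 (adjusted p = 0.00202). NFKB2, which encodes the partner of RELB, differed by 1.09 and 1.01 and rose by 1.05 ± 0.20 (adjusted p = 0.00958). BCL2L1, an inhibitor of apoptosis, was higher by 1.03 and 0.92 and was the 1 gene of 13 of the BCL2 family that rose (adjusted p = 0.00649). The chemokine gene CXCL2 and the protease gene PLAU rose by 0.88 and 0.62.

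Other stress lists had fewer calls, to be set against rises in 2.5% and falls in 5.41% of all tested genes. Of 19 p53 targets 5 rose and 0 fell: SESN2, the kinase gene PLK3 (1.37 ± 0.22), GDF15 (1.28 ± 0.20), the death receptor gene TNFRSF10B (1.12 ± 0.25) and GADD45A (1.03 ± 0.22). Of 13 hypoxia targets 4 rose, namely VEGFA, NDRG1, ANGPTL4 and ANKRD37. VEGFA, the vascular growth factor, read 7.54 against 6.95 and 9.29 against 7.48, so that most of its mean of 1.20 ± 0.27 came from the Nupr1 set. Of 19 glycolysis genes 1 rose, the glucose transporter gene SLC2A3 (0.98 and 1.27; adjusted p = 0.00859). Of 21 ER chaperones and ER stress genes 2 rose and 3 fell. The rises were HERPUD1, which takes part in ER-associated degradation (1.11 ± 0.18), and the transcription factor gene XBP1 (1.05 ± 0.19). The falls were the chaperones DNAJC3 (-0.91 ± 0.24), HSP90B1 (-0.80 ± 0.15) and DNAJB11 (-0.61 ± 0.17), of which 1 was called without the filter, without the trend or with robust moderation. HSPA5, the main ER chaperone, was lower by 0.43 in the NF-kB set and higher by 0.45 in the Nupr1 set, and this difference of the responses passed (adjusted p = 0.0074). Of 13 YAP and TEAD targets 2 rose, CCN1 and the receptor kinase gene AXL (0.76 ± 0.18).

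**Figure D2:**
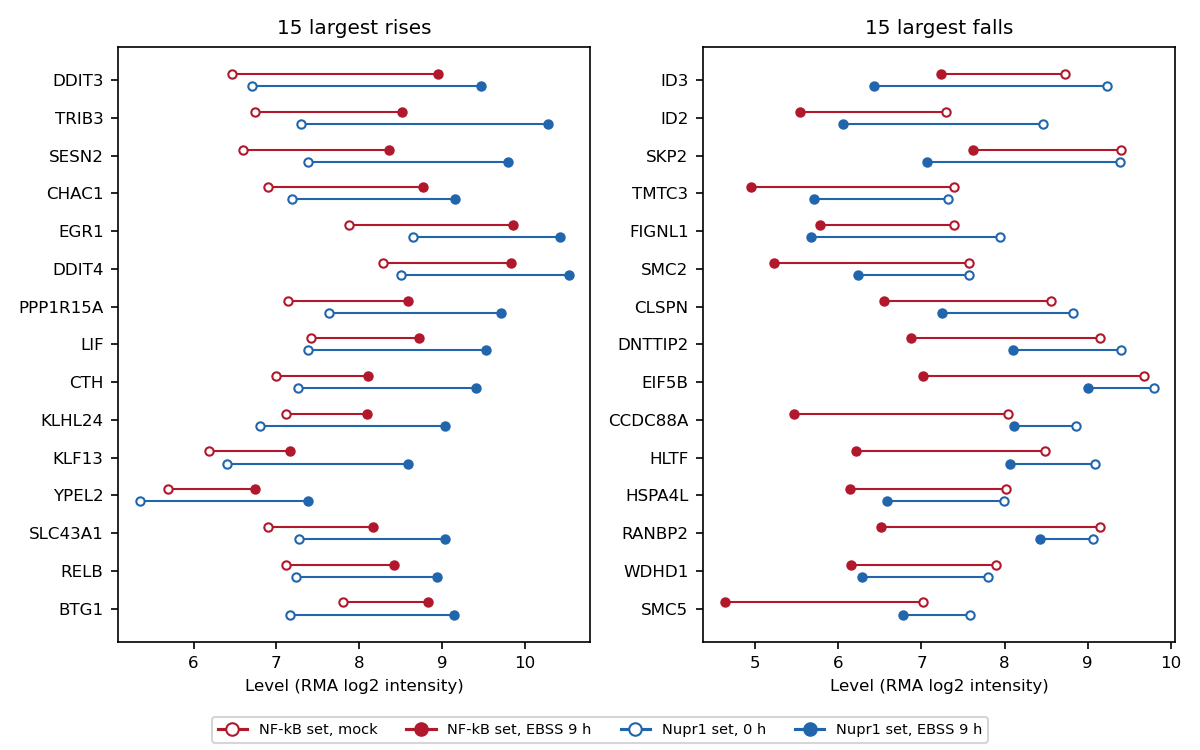
RMA log2 levels of the 15 largest rises (left) and 15 largest falls (right) past the threshold, with open points for the fed array and filled points for EBSS at 9 h, in red for the NF-kB set and blue for the Nupr1 set. All 15 rises are higher in EBSS in both sets, from 0.98 (KLHL24 and KLF13) upward; falls such as RANBP2 and EIF5B are long in red (-2.64 and -2.65) and short in blue (-0.64 and -0.78).

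The largest falls were those of ID3 and ID2, targets of BMP signalling whose proteins bind helix-loop-helix factors and keep them off DNA. ID3 read 7.24 against 8.73 and 6.43 against 9.23, a fall of 2.14 ± 0.27 on the log2 scale (adjusted p = 0.00153). The fall was deeper in the Nupr1 set, where the fed array was higher and the starved one lower, by a tested difference of 1.31 ± 0.21 (adjusted p = 0.00159). ID2 read 5.54 against 7.29 and 6.06 against 8.46 (-2.08 ± 0.22, adjusted p = 0.000502). Of 7 tested ID genes and BMP SMAD targets 4 fell and 0 rose, against 5.41% and 2.5% of all tested genes. Beside ID3 and ID2 the falls were ID1 (-0.87 ± 0.20) and BAMBI (-0.85 ± 0.20).

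Genes of DNA replication and the G1/S step fell in number. Of 33 tested, 17 fell and 0 rose, against 5.41% and 2.5% of all tested genes, with a median of -0.73. SKP2, a ubiquitin ligase subunit that removes cyclin-dependent kinase inhibitors, read 7.62 against 9.40 and 7.06 against 9.38, a fall of 2.05 ± 0.22 (adjusted p = 0.000502). CLSPN, an adaptor of the replication checkpoint, fell by 1.79 ± 0.22 (adjusted p = 0.00111), CDC6, which loads the replicative helicase, by 1.49 ± 0.19 (adjusted p = 0.00153) and MCM10 by 1.45 ± 0.22 (adjusted p = 0.00376). CDC6 was lower by nearly the same amount in both sets, -1.53 and -1.44. Among the 15 largest falls outside the list were WDHD1, a replication protein that ties the helicase to a polymerase (-1.74 and -1.52), and FIGNL1, an ATPase of recombination repair (-1.60 and -2.27). The letters TTTGGCGC, a form of the element that E2F factors bind, were in 15 of 524 promoters of falling genes (2.86%), 1 of 209 of rising genes (0.478%) and 106 of 8849 tested (1.2%). The form TTTCCCGC was in 26 (4.96%), 6 (2.87%) and 305 (3.45%). The 3 other motifs, counted in the same promoters, had shares of 49.6%, 48.3% and 41.9% among falling, rising and tested genes (CCAAT), 8.4%, 9.57% and 8.7% (an NF-kB consensus) and 3.82%, 4.78% and 3.9% (TGACGTCA). A promoter that held several motifs was counted for each.

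Of 27 genes of G2/M and mitosis 8 fell and 0 rose, against 5.41% and 2.5% of all tested genes, with a median of -0.46. The kinetochore gene CENPF read 6.41 against 8.79 in the NF-kB set and 8.71 against 9.25 in the Nupr1 set. The spindle motor gene KIF11 fell by 1.19 ± 0.22, the proliferation marker gene MKI67 by 1.08 ± 0.19 and the topoisomerase gene TOP2A by 0.97 ± 0.19. Chromosome-structure genes SMC2 (-1.84 ± 0.24) and SMC5 (-1.60 ± 0.29) were among the 15 largest falls.

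Heat shock proteins and their co-chaperones fell as well: 8 of 17 tested, with 0 rises, against falls in 5.41% of all tested genes. HSPA4L, a nucleotide exchange factor, read 6.14 against 8.02 and 6.58 against 7.998 (-1.65 ± 0.21, adjusted p = 0.00154). CHORDC1, an HSP90 co-chaperone, fell by 1.53 ± 0.25, DNAJB4 by 1.33 ± 0.23 and HSPH1 by 1.28 ± 0.18. The constitutive chaperone HSPA8, among the brightest genes, fell by 0.28 ± 0.07, from 13.29 to 13.03 and from 13.25 to 12.95. Of 23 ribosome biogenesis genes 3 fell (NOP58, UTP15 and NCL). Of 21 translation initiation factors 2 rose (EIF1 and EIF6) and 2 fell (EIF5B, which joins the ribosomal subunits, at -1.72 ± 0.32, and EIF1AX); without the intensity trend 0 rose and 1 fell. Of 22 nuclear pore and mRNA export genes 4 fell (RANBP2, TPR, THOC2 and XPO1), and with robust variance moderation 1 did. The next lists held few falls, not far from the 5.41% of all tested genes, and give no result about the lists as such. Of 26 proteasome subunits 2 fell, of 17 cholesterol and fatty acid synthesis genes 2 fell (MSMO1 and HMGCS1), and of 13 interferon-stimulated genes 2 fell. These last were IFIT5 (-1.21 and -1.19) and IFIT1, which read 7.36 against 9.02 in the NF-kB set and 7.01 against 7.85 in the Nupr1 set.

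No call was made by limma in the shared response for the ribosome, respiration, NRF2 and histone lists. Of 16 cytosolic ribosomal proteins, 21 genes of oxidative phosphorylation, 17 NRF2 targets and 18 replication-dependent histones, 0 rose and 0 fell. Over all tested genes 2.5% rose and 5.41% fell, so lists of this size would hold few calls in any case. The medians of these lists were 0.11, -0.020, 0.012 and 0.26. The ribosomal protein gene RPL3 read 12.48 against 12.33 and 12.31 against 12.11. Clusters of histone and metallothionein genes match near-identical copies, and which copy was measured is uncertain.

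**Figure D3:**
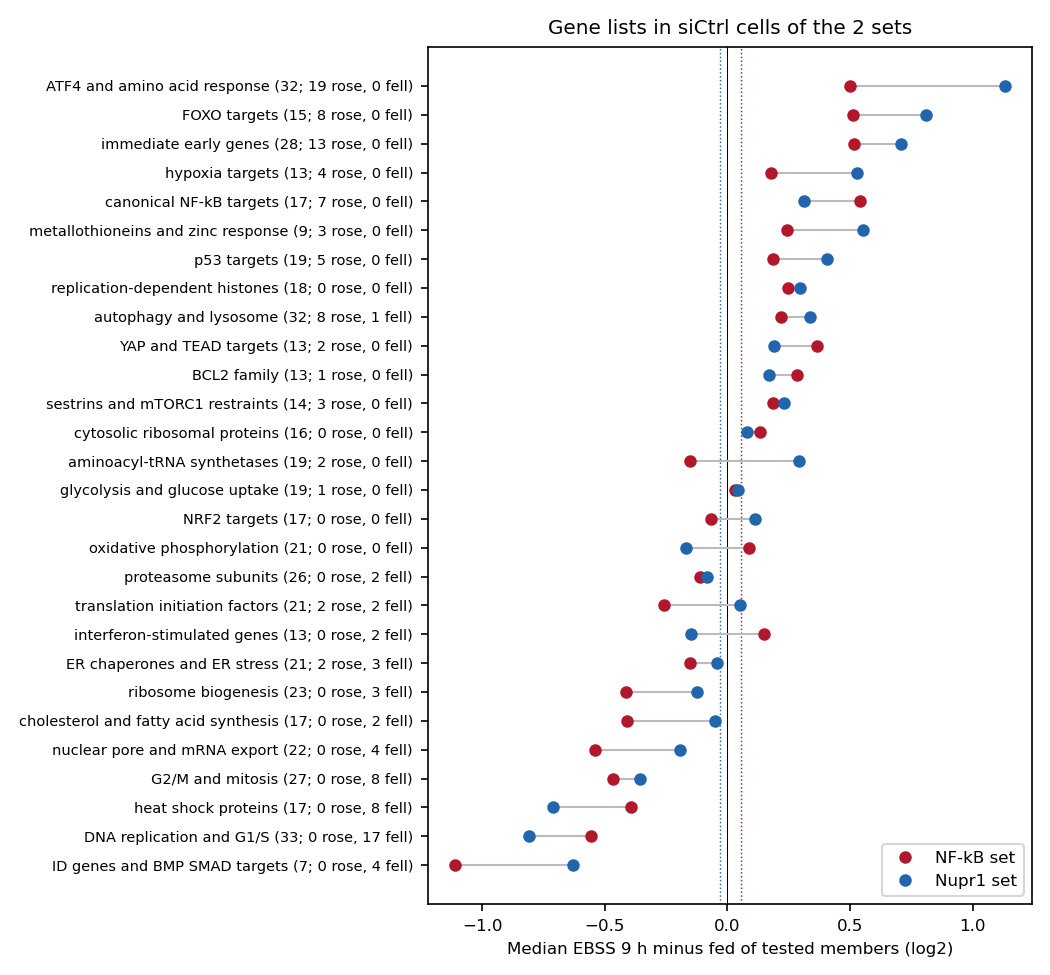
Median log2 difference between EBSS at 9 h and the fed array over the tested members of each gene list, in red for the NF-kB set and blue for the Nupr1 set; each label gives the tested members and how many rose and fell, and the dotted lines are the medians of all tested genes (0.055 and -0.029). The ATF4 list has the highest shared median (0.50 and 1.13) and the ID and BMP list the lowest (-1.11 and -0.63). In the Nupr1 set alone, replication genes (-0.81) and heat shock proteins (-0.71) are lower.

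The sets disagreed in part. Over the 11026 tested genes the sign was shared by 7016 (63.6%). Across genes, which are not independent replicates, the differences of the sets correlated at Pearson 0.517 and Spearman 0.471. A change of 2-fold or more was seen in 62 genes upward and 574 downward in the NF-kB set, and in 193 upward and 147 downward in the Nupr1 set. Of the 62, 56.5% were also 2-fold higher in the Nupr1 set, and of the 193, 18.1% in the NF-kB set. Of the 574 lower genes 10.6% were 2-fold lower in the Nupr1 set, and of the 147, 41.5% in the NF-kB set. No gene was 2-fold changed in opposite directions (0 genes), and 18 were at least 1.5-fold lower in the NF-kB set and as much higher in the Nupr1 set, against 0 the other way.

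The difference of the responses was tested in a limma fit of all 14 arrays. Its spread came from the siRelA, siRelB, 3 h and 6 h arrays, and the siNupr1 arrays at 0 and 9 h gave none. The arrays that gave it differ in siRNA or in time, so the spread can hold such differences beside technical ones. The response was lower in the NF-kB set for 716 genes (6.49% of those tested) and higher for 146 (1.32%). The share of higher calls went from 16.9% to 27.4% when each array was centred on its median (268 higher and 709 lower). Without the siRelA EBSS, siRelA mock, siRelB EBSS or siRelB mock array, 1565, 1575, 1565 and 1584 genes were called in place of 862. Of the 716 genes, 360 were lower with starvation in the NF-kB set and higher in the Nupr1 set, 275 were lower in both and 81 higher in both. Of the 276 shared rises 37 differed, and all 37 were larger in the Nupr1 set. Of the 597 shared falls 133 differed, 123 of them deeper in the NF-kB set and 10 in the Nupr1 set.

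SLC7A11 (transcript cluster 8102800) differed most. It encodes the transporter that takes up cystine for glutathione synthesis and is a target of both ATF4 and NRF2. It read 6.27 in EBSS and 6.31 in mock, and 9.76 at 9 h against 6.64 at 0 h. The fed arrays lay close together and the starved arrays far apart, a difference of the responses of -3.16 ± 0.29 (adjusted p = 9.6e-05), 8.75-fold up in the Nupr1 set. Of the 32 tested genes of the ATF4 list 11 had a lower response in the NF-kB set and 0 a higher one, against 6.49% and 1.32% of all tested genes. Among them were SLC6A9 (-1.33 ± 0.22), the mitochondrial folate enzyme gene MTHFD2 (-1.07 ± 0.19), SLC7A1 and CTH. Of 19 aminoacyl-tRNA synthetases 6 were lower, with TARS1 at -0.52 in the NF-kB set and 0.67 in the Nupr1 set, and AARS1 at 0.08 and 1.10. Other NRF2 targets in this direction were TXNRD1, thioredoxin reductase (-0.13 and 0.99), and GCLM, a glutathione synthesis subunit (-0.52 and 0.38).

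Some genes that respond to zinc parted in the same direction. SLC30A1, which exports zinc from the cell, read 7.22 against 8.04 in the NF-kB set and 9.59 against 8.35 in the Nupr1 set. Starvation and a lower level went together in the first set and starvation and a higher level in the second, a difference of -2.06 ± 0.21 (adjusted p = 0.00013). MTF1, the zinc-sensing transcription factor gene, was at -0.68 and 0.70 (adjusted p = 0.00122). Of the 9 tested genes of the metallothionein and zinc list 4 had a lower response in the NF-kB set, against 6.49% of all tested genes. Beside SLC30A1 and MTF1 these were MT1M and MT1X. The differences of MT1G (-0.11) and MT2A (-0.28) did not pass. In the shared response 3 rose (MT1M, MT1G and MT2A), against 2.5% of all tested genes. Without the filter, with the span trend removed or with robust moderation 0 of the list rose.

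The 10 largest lower responses in the NF-kB set held 8 further genes, of various functions. ROCK1, a kinase of the actin skeleton, read 5.26 against 7.54 in the NF-kB set and 8.09 against 8.02 in the Nupr1 set. WASHC4, a subunit of an endosomal actin regulator, was at -1.82 and 0.53, the chromatin remodeller gene CHD1 at -2.30 and -0.10 and RB1CC1, which starts autophagosome formation, at -1.27 and 0.84. THOC2, an mRNA export factor, was at -2.30 and -0.20, the deubiquitinase gene USP34 at -1.75 and 0.34, the SUMO protease gene SENP6 at -1.69 and 0.33 and the endosomal gene ZFYVE16 at -1.95 and 0.07. For all of these the starved array of the NF-kB set was the low one of the 4. Some nuclear pore genes (6 of 22) and translation initiation factors (5 of 21) ran the same way, against 6.49% of all tested genes. RANBP2, at -2.64 and -0.64, and EIF3A were among them, and most members of both lists did not differ. Nuclear pore genes had a median length of 62.2 kb from start to end with introns. Of all genes in the decile of length with a median of 59.3 kb, 11% had a lower response.

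Of 17 tested cholesterol and fatty acid synthesis genes, 7 had a lower response in the NF-kB set and 0 a higher one, against 6.49% and 1.32% of all tested genes. HMGCS1, an early enzyme of the pathway, read 7.49 against 8.94 in the NF-kB set and 7.36 against 7.79 in the Nupr1 set. INSIG1, which senses sterols, was at -1.13 and -0.10 (difference adjusted p = 0.011), and the desaturating enzyme gene MSMO1 at -1.79 and -0.76. For HMGCS1 and MSMO1 the fed array of the NF-kB set was the high one of the 4, by over 1 on the log2 scale above the fed array of the Nupr1 set.

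Some replication genes ran the other way. Of 33 tested, 5 had a higher response in the NF-kB set and 0 a lower one, against 1.32% and 6.49% of all tested genes. In these 5 the starved array of the Nupr1 set was the further below its fed array. The rest of the list did not pass. The origin gene ORC1 was at -0.76 and -1.89 (difference 1.12 ± 0.23, adjusted p = 0.00708), the helicase component GINS2 at -0.47 and -1.60 and MCM2 at -0.19 and -1.12. Beside ID3, the leading genes in this direction were the tubulin pseudogene TUBA3FP (-0.43 and -1.94), FAM30A (0.43 and -1.03), DEXI (1.13 and -0.31), SMAD9 (0.37 and -0.98), TUBB4A, ANKRD30BL, NDUFB3, HGC6.3 and LOC442132. Several of these read near the filter level on some arrays (FAM30A at 5.00, NDUFB3 at 5.63), and signals of tubulin genes and pseudogenes cannot be told apart where their copies share sequence.

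**Figure D4:**
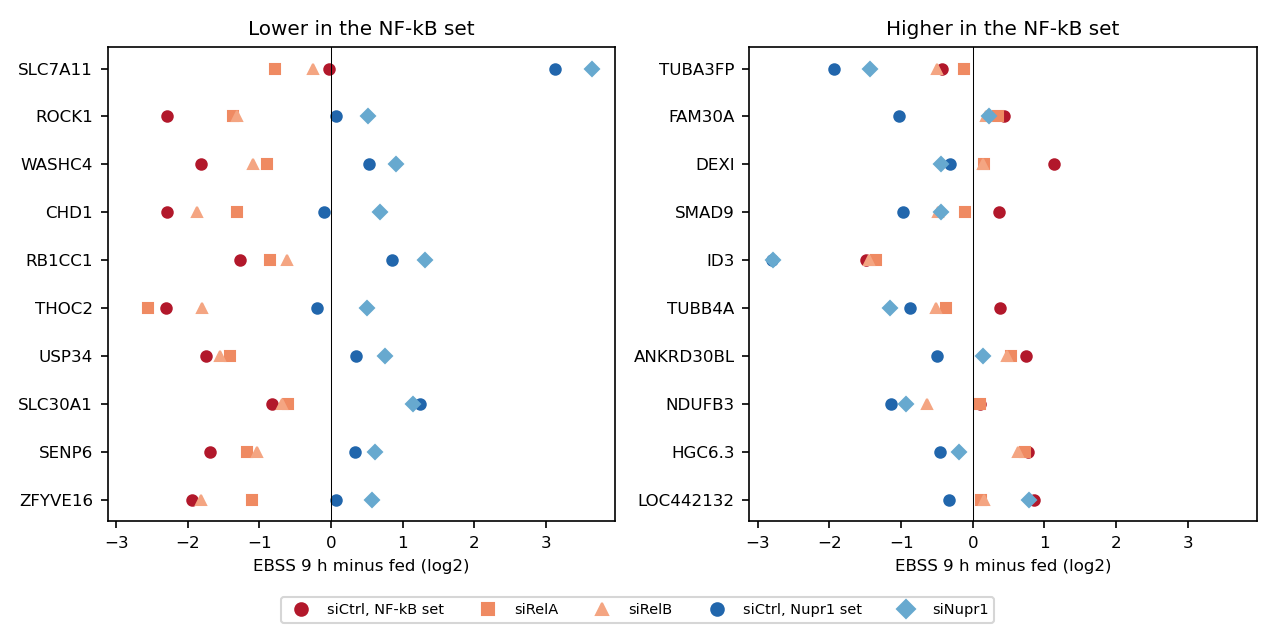
Log2 difference between EBSS at 9 h and the fed array for the 10 genes with the largest lower (left) and higher (right) response in the NF-kB set, in circles for the siCtrl pairs and in other marks for the siRelA, siRelB and siNupr1 pairs. On the left the 3 pairs of the NF-kB set lie left of both pairs of the Nupr1 set for all 10 genes, with SLC7A11 at -0.04, -0.78 and -0.25 against 3.13 and 3.65.

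The disagreement followed the genomic span of genes, the distance from start to end with introns. Genes with a lower response in the NF-kB set had a median span of 80.3 kb and those with a higher one 11.5 kb, against 24.8 kb over all tested genes with a span. The shared rises had a median of 14.6 kb and the shared falls 46.5 kb. Across 11015 genes the starvation difference of the NF-kB set correlated with span at Spearman -0.375, and that of the Nupr1 set at -0.0232, which is a description over genes that share the same arrays. From the first to the last decile of span the median difference went from 0.21 to -0.20 in the NF-kB set, and from -0.019 to -0.034 in the Nupr1 set. The share with a lower response in the NF-kB set went from 0.817% to 17.2%. With a smooth trend on span removed within each set, 989 genes were called in the shared response, 815 of them among the 873, and 651 in the difference, 567 of them among the 862. The 10 genes with the largest lower response in the NF-kB set spanned from 7.59 kb (SLC30A1) to 284 kb (USP34), with SLC7A11 at 78.3 kb and ROCK1 at 165 kb. What lies behind the relation to span was not tested.

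**Figure D5:**
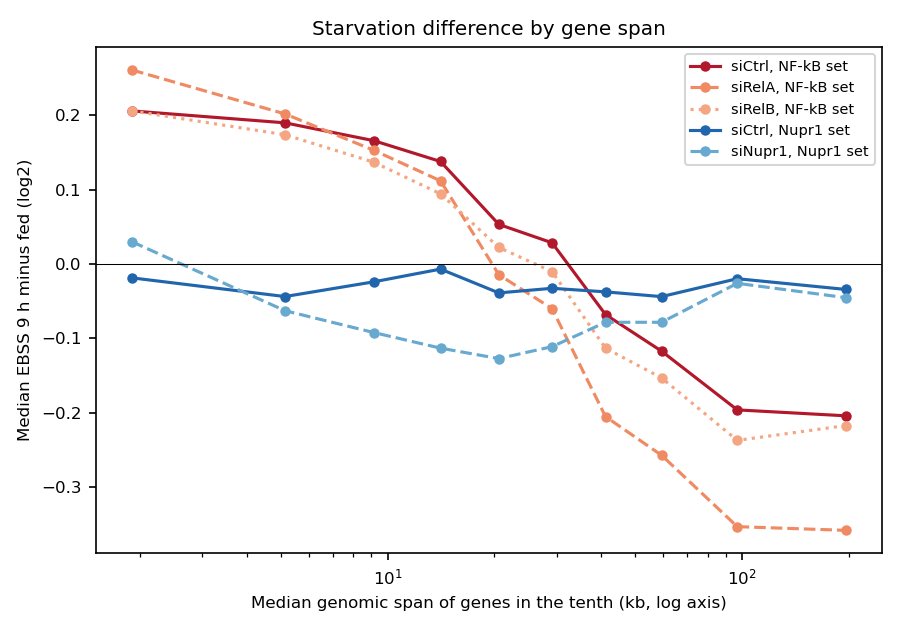
Median log2 difference between EBSS at 9 h and the fed array in deciles of genes ordered by genomic span (horizontal log axis, in kb), for the 5 pairs of arrays at 9 h. The 3 pairs of the NF-kB set go down from between 0.21 and 0.26 to between -0.20 and -0.36, while both pairs of the Nupr1 set stay between -0.13 and 0.03.

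The 3 pairs of arrays that entered neither the choice of these 4 nor the shared fit allow the same genes to be read again, in cells given an siRNA against RELA, RELB or NUPR1. They belong to the same sets, and for 1 of them, siNupr1 at 9 h, title and source name different siRNAs. Of the 276 shared rises 235 (85.1%) were higher in all 3 other pairs, against 22.4% of all tested genes. Of the 597 shared falls 491 (82.2%) were lower in all 3, against 27% of all tested genes. DDIT3 was higher by 1.54 with siRelA, 1.52 with siRelB and 2.79 with siNupr1. SKP2 was lower by 1.87, 1.36 and 2.36. Some members of the shared response were near 0 or of the other sign in a pair. Among the rises were SESN2 with siRelA (0.21) and ATF3 with siRelA and siRelB (-0.02 and 0.07). CTH was at -0.195 with siRelA, and VEGFA at -0.13 with siRelA and -0.02 with siRelB. Among the falls were HLTF, RANBP2 and EIF5B with siNupr1 (0.06, 0.08 and 0.02).

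The disagreement of the sets was seen there too. Of the 716 genes with a lower response in the NF-kB set, 703 (98.2%) were lower in both the siRelA and the siRelB pair than in the siNupr1 pair, against 33.8% of all tested genes. Of the 146 with a higher response 121 (82.9%) were higher in both, against 50.3%. The siRelA and siRelB arrays also gave part of the spread of that test, and the siNupr1 pair gave none. No level of these 3 pairs entered its contrast. Span correlated with the difference at Spearman -0.448 with siRelA and -0.357 with siRelB, and at -0.00723 with siNupr1. Within the Nupr1 set, the siCtrl arrays at 3 and 6 h, set against the same 0 h array, gave -0.186 and -0.158. On those arrays SLC7A11 read 8.93 and 8.81, against 6.64 at 0 h, so that its level was high from 3 h on.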

How the data were processed

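Total RNA of MiaPaCa2 cells (200 ng per sample, per the labels' protocols) was hybridized to Affymetrix whole-transcript arrays. The deposited values are log2 intensities that the authors made by RMA, per the submitters' processing notes, which also name limma; versions, design and genome build are not stated in the notes or labels. All 28869 transcript clusters had a value on each array. The array annotation gave 1 gene symbol for 19310 of them and several for 1752, which were not used; 7807 were not listed. Current symbols, matched by Entrez identifier for 19279 clusters, came to 18377 genes, and for 685 genes with several clusters the brightest on average over 14 arrays stood for the gene.

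Genes with a mean up to 5.805 (the lowest 40%) were left out. R 4.3.3 and limma 3.58.1 (lmFit, eBayes with an intensity trend) were used, with Benjamini-Hochberg adjustment over 11026 genes and a threshold of 0.05. The shared response is the EBSS term of a fit of 4 arrays with set as a block, with 1 residual degree of freedom per gene, which is the disagreement of the sets, and 13.3 in total after moderation. The difference of the responses is a contrast of a fit of 14 arrays with 12 columns (2 residual and 15.2 total degrees of freedom). Single-set differences have no replicate within the set and were tested only where 1 of the 4 arrays was left out. The spread was then taken from the siRelA, siRelB, 3 h and 6 h arrays. Both fits were tested on simulated data: known changes came back with their sign and size, and the shared fit made more false calls than its threshold allows.

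The genes named by rule are NUPR1, IER3 and the NF-kB subunits, the 15 largest called rises and falls, up to 4 members of each list by size of change, and the 10 largest called differences each way; other genes were named after their values were seen, as list members called or as holders of a promoter match. The arrays, the 33 lists and the tests were chosen with earlier results of these data known. Alternatives were other filters, quantile normalization, median centring, all clusters as features, no set block, a joint or additive fit of 14 arrays, no trend, robust moderation, removal of a trend on gene span, and each array left out. Gene spans and promoters come from RefSeq tables of GRCh38.p14, with a promoter for 8849 of the tested genes.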

Additional observations from a re-analysis of the deposited data

Results flagged for a closer look

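Of 140 named genes, 57 had a difference of the starvation responses between the sets that passed the threshold of the limma fit of 14 arrays, 47 of them lower in the NF-kB set and 10 higher. Over all tested genes 6.49% were lower and 1.32% higher. The 10 largest called differences each way were named for that very difference, and all 10 higher genes are among them. The count is therefore no result about the named genes. The values are the log2 response of the NF-kB set minus that of the Nupr1 set. Beyond SLC7A11 (-3.16) and SLC30A1 (-2.06), the lowest were ROCK1 and WASHC4 (both -2.35), CHD1 (-2.20), RB1CC1 and THOC2 (both -2.11), USP34 (-2.10), and SENP6 and ZFYVE16 (both -2.02).

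Genes that fell in both sets but further in the NF-kB set were RANBP2 (-2.0), EIF5B (-1.87), CENPF and CCDC88A (both -1.83), ASPM (-1.58), SMC5 (-1.57), TPR (-1.45), HLTF (-1.25), ANLN (-1.0), CHORDC1 (-0.99), DNTTIP2 (-0.97), NOP58 (-0.88) and IFIT1 (-0.81). The ER chaperone DNAJC3 (-1.03) and the sterol genes MSMO1 (-1.03) and HMGCS1 (-1.01) belong with them, and INSIG1 (-1.03) and SQLE (-0.84), which did not pass in the shared response, lay in the same direction.

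Genes that rose in both sets and further in the Nupr1 set were TNFRSF10B (-1.31), MAP1LC3B (-1.26), KLHL24 (-1.25), VEGFA (-1.23), TRIB3 (-1.22), KLF13 (-1.21), CTH (-1.03), MT1M (-1.02), WIPI1 (-0.98), YPEL2 (-0.97), BTG1 (-0.96), CARS1 (-0.86), LIF (-0.85) and XBP1 (-0.70). Genes not called in the shared response, with a higher response in the Nupr1 set, were IFIT2 (-1.14), TXNRD1 (-1.12), AARS1 (-1.02), MT1X (-0.93) and TIGAR (-0.78).

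Higher in the NF-kB set were TUBA3FP (1.51), FAM30A (1.46), DEXI (1.44), SMAD9 (1.35), ID3 (1.31), TUBB4A (1.26), ANKRD30BL and NDUFB3 (both 1.24), HGC6.3 (1.23) and LOC442132 (1.19). No group held enough arrays for a test of single arrays against their group.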

How the results depend on the processing

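With 1 residual degree of freedom, the calls of the shared response (873 genes) depend on how their spread is estimated, and on simulated data the fit made more false calls than its threshold allows. Under the other filters, quantile normalization, all clusters, no trend, robust moderation and span removal the count lay between 587 and 1242. It was 1445 with arrays centred on their median (558 higher and 887 lower), where the total degrees of freedom came to 11000, 3834 in the joint fit of 14 arrays, which contains 872 of the 873, and 0 by limma without the set block (replicate block), with 824 at an unadjusted p under 0.05. Leaving out 1 of the 4 arrays gave 2290 to 2957. The difference between the sets (862 genes) came to 2698 in the additive fit, 651 to 977 under the other filters, scalings and moderations, and 668 to 1584 with 1 of the 10 other arrays left out; leaving out 1 of the 4 removes the difference. The count of genes at least 2-fold changed in both sets was 96, 100 after quantile normalization and 686 at 1.5-fold.

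No gene named and called in the shared response changed sign (0 genes); 18 that were not called did, each in a single pair. Called in both pairs with opposite signs were SLC30A1 (-0.82 to 1.235), RB1CC1 (-1.27 to 0.84) and WASHC4 (-1.82 to 0.53). Robust moderation ended the shared call of 19 named genes, among them RANBP2, EIF5B, CENPF, VEGFA and MAP1LC3B, no filter that of 15 and no trend that of 10. The 2 initiation factors that rose were 0 with no trend or span removed, the 2 proteasome subunits that fell 0 without a filter, and the 8 autophagy genes that rose 5 without it. Median centring and the joint fit added RELA to the shared rises (adjusted p = 0.0208 and 0.000512).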
